A study of Mus musculus with 6 samples.

Results

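The 9 named transcription factor genes of skeletal muscle were followed in C2C12 myotubes, chosen by name from the deposited table of gene counts: 4 of the MyoD family (Myod1, Myog, Myf5 and Myf6), 3 of the Mef2 family (Mef2a, Mef2c and Mef2d), Pax7 and Six4. All 9 were present among the 12625 genes of the table. C2C12 is a mouse myoblast line that fuses into myotubes, and the sequenced samples were 3 libraries of myotubes given 100 ng per ml of recombinant mouse RANKL (TNFSF11, the ligand of RANK) for 72 h after 5 days of differentiation, and 3 libraries of myotubes given vehicle. All libraries came from this single cell line, with no genotype other than that of the line stated. The labels do not say whether the replicates were separate cultures, so the p-values reflect the spread among these samples alone, and that spread may be technical.

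The MyoD family are basic helix-loop-helix factors that pair with E proteins and bind E-boxes in muscle genes. Myf5 and MyoD set the myoblast fate, myogenin (Myog) drives terminal differentiation, and Myf6 (MRF4) is the member known for its high expression in mature fibres. Mef2 proteins are MADS-box factors that act together with the MyoD family on muscle promoters and are held in check by class IIa histone deacetylases. Pax7 marks satellite cells, the stem cells of muscle, and Six4 is a homeobox factor that works with Eya coactivators upstream of the MyoD family.

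Total counts per library ranged from 32732604 to 39677999. Muscle genes were abundant, as the labelled cell type calls for. Myh3, the embryonic myosin heavy chain, averaged 7091 ± 102 CPM in RANKL myotubes and 7769 ± 193 CPM in vehicle myotubes (CPM, TMM-scaled counts per library, mean ± SD, n = 3 each), and Des (desmin) averaged 3867 ± 70.5 CPM in RANKL myotubes and 4057 ± 58.0 CPM in vehicle myotubes. RANKL and vehicle libraries separated on the first principal component, with 57.7% of the variance, and RANKL replicates 1 and 3 lay farthest apart on the second, with 15.7%. Genes were tested with edgeR's quasi-likelihood test at an adjusted p under 0.05 over all genes, which called 1623 of 12625 genes (12.9%), 676 higher (5.35%) and 947 lower (7.5%). Without vehicle replicate 1 these counts were 426 and 561, without vehicle replicate 2 they were 373 and 537, and without RANKL replicate 2 they were 468 and 596. Myh3 was among the genes called lower (log2 fold change -0.13 ± 0.04 (SE), adjusted p = 0.0247 by edgeR), and Des did not pass (-0.07 ± 0.03, adjusted p = 0.199 by edgeR). Of the other myotube markers, Acta1 (-0.19 ± 0.03) and Cdh15 (-0.29 ± 0.03) were called lower. Ckm (0.04 ± 0.05), Mylpf (0.03 ± 0.04), Tnnt3 (0.05 ± 0.04) and Tmem8c (-0.09 ± 0.04) did not pass, so the markers were mixed.

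Of the 9 factors 1 rose under RANKL, Myf6, and 1 fell, Mef2d. The other 7 did not pass the test, among them Myog, Mef2c and Myod1, which with Mef2d and Mef2a were the most abundant of the 9. RANKL and vehicle libraries did not overlap for 4 of the 9, Myf6 and Myf5 being higher and Mef2d and Mef2a lower in RANKL myotubes, against 31.5% of all genes tested (14.9% higher and 16.6% lower). In whole cultures, fewer cells of a type and less RNA per cell cannot be told apart.

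**Figure D1:**
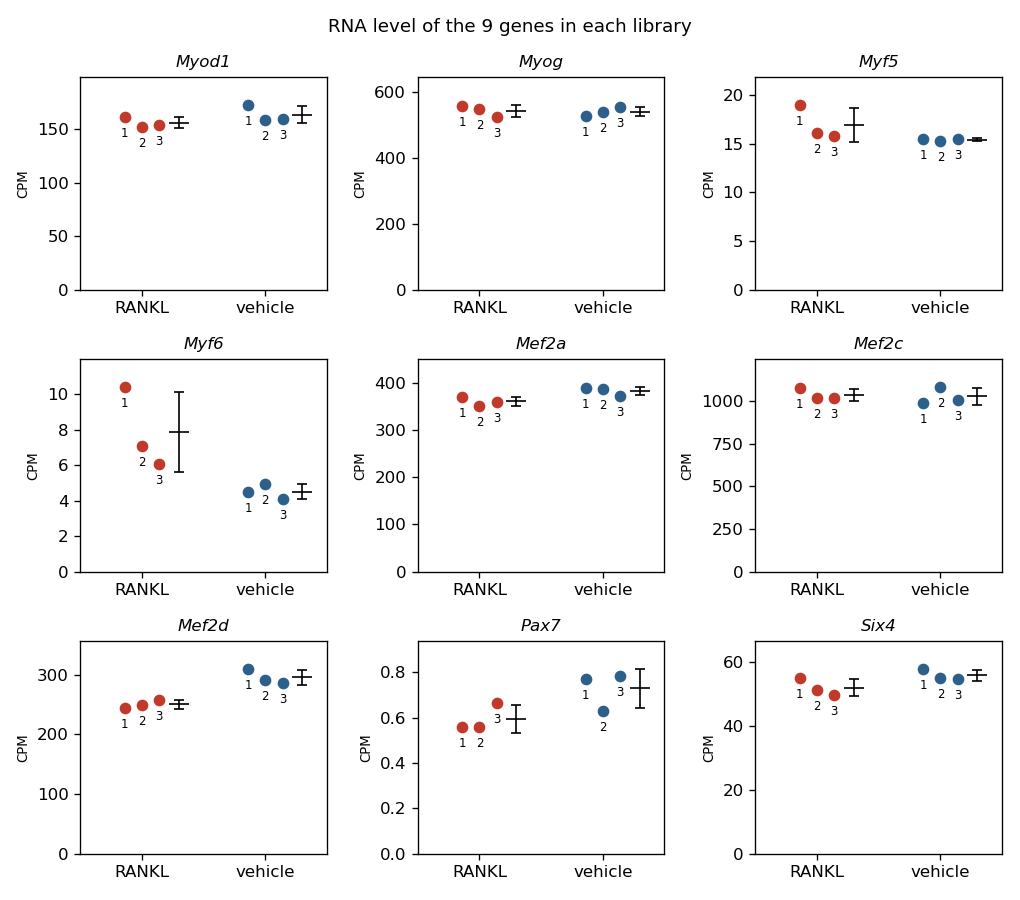
Level of each of the 9 genes in CPM on a linear axis from 0, with 1 point per library (numbered by replicate) and the mean ± SD beside them (n = 3 each). The 3 RANKL libraries lay above all vehicle libraries for Myf6 and Myf5 and below them for Mef2d and Mef2a.

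Levels were set against each other per length of gene, as RPKM from the authors' log2 table. In RANKL myotubes Myog stood highest at 366 ± 12.2 RPKM, followed by Mef2c at 158 ± 5.35, Mef2d at 102 ± 2.87, Myod1 at 84.1 ± 2.81 and Mef2a at 61.9 ± 1.74 RPKM. Six4 had 9.33 ± 0.499, Myf5 8.17 ± 0.852, Myf6 6.35 ± 1.82 and Pax7 0.152 ± 0.0144 RPKM in the same libraries. The order in vehicle myotubes was the same, with Myog at 365 ± 9.14 RPKM, above 99.1% of genes in the table, and Pax7 at 0.184 ± 0.0200 RPKM, above 1.54%. Neighbours in this order did not overlap between libraries of a group, except in RANKL myotubes, where Six4 (8.91 to 9.88 RPKM) overlapped with Myf5 (7.61 to 9.15 RPKM) and Myf5 with Myf6 (4.93 to 8.40 RPKM). The order rests in part on the gene lengths behind the authors' values: with the exon lengths of GENCODE M21 Myod1 ranked above Mef2c and Mef2d in both groups, Six4 ranked below Myf5 in both and below Myf6 in RANKL myotubes, and Myog stayed highest and Pax7 lowest.

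Promoter sequences were available for 7 of the 9 genes, from RefSeq on GRCm38.p6. The 250 bases before the start are shown for Myog, the most abundant of the 9 factors, for Mef2d, which fell, and for the first start of Mef2c, which did not pass the test. Capitals mark E-boxes (CANNTG), matches to the Mef2 consensus with its last letter left free, and MEF3 motifs (TCAGGTT), the sequence that Six4 and its relatives bind, on either strand.
Myog, chr1:134289754-134290003, plus strand: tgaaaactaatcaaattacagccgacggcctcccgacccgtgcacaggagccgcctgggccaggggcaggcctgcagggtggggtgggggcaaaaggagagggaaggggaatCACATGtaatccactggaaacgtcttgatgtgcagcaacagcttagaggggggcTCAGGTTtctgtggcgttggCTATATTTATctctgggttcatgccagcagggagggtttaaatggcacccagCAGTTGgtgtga
Mef2d, chr3:88142122-88142371, plus strand: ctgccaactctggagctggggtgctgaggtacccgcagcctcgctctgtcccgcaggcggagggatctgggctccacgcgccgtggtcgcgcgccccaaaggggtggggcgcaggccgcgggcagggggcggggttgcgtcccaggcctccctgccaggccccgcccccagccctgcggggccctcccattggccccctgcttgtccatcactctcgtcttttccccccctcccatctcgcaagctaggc
Mef2c, chr13:83503784-83504033, plus strand: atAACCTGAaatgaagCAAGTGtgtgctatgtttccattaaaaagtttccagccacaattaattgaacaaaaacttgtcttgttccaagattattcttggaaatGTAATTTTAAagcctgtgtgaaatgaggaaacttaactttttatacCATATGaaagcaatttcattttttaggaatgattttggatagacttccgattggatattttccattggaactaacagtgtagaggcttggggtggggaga
The Myog window held 2 E-boxes, beginning 138 and 12 bases before the start, a MEF3 motif at 84 bases and a Mef2 match at 64 bases. The Mef2d window held none of these motifs and was rich in G and C, at 73.2% with 19 CpG pairs. RefSeq gives Mef2c 3 starts. The window printed, before the first of them, held 2 E-boxes, 1 MEF3 motif and 1 Mef2 match, and had 33.6% G and C with 1 CpG pair. Of the other Mef2c windows, that at chr13:83523406-83523655 held none of these motifs and had 44.8% G and C, and that at chr13:83573357-83573606 held 1 E-box alone and had 49.6%. Over 32851 promoter windows of the same length, 66.2% held an E-box, 3.49% the MEF3 motif and 7.03% the Mef2 match, and the median window had 52.4% G and C with 6 CpG pairs. The strict Mef2 consensus, found in 2.92% of windows, and the NF-kB consensus, found in 3.9%, matched in no window of the 7 genes, and the freer Mef2 form was chosen after that search. Matches describe these letters only and do not show binding.

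Myog, the factor of terminal differentiation, lies on chromosome 1 (chr1:134289989-134292548, mm10). It had 558, 546 and 522 CPM in RANKL replicates 1, 2 and 3 and 526, 539 and 553 CPM in vehicle replicates 1, 2 and 3. The groups overlapped, with a log2 fold change of 0.01 ± 0.03 (SE), a 95% interval from -0.07 to 0.08 and an adjusted p of 0.922 by edgeR. The interval holds for this fit and for a spread that may be technical. Over 15 alternative analyses the estimate ran from -0.01 to 0.04, and its sign turned in 4 of them.

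Myod1, the founding member of the family (chr7:46376474-46379099), had 162, 152 and 154 CPM in RANKL replicates 1, 2 and 3 and 173, 158 and 159 CPM in vehicle replicates 1, 2 and 3. The groups overlapped, and the log2 fold change was -0.07 ± 0.04 (95% interval -0.15 to 0.01, adjusted p = 0.282 by edgeR). Vehicle replicate 1 was the highest library, and without it the log2 fold change was -0.03.

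Myf6 and Myf5 are neighbours on the minus strand of chromosome 10, with 6718 bases and no annotated gene between them (Myf6 at chr10:107492853-107494737 and Myf5 at chr10:107482908-107486134). Myf6 had 10.4, 7.08 and 6.10 CPM in RANKL replicates 1, 2 and 3, against 4.48, 4.93 and 4.09 CPM in vehicle replicates 1, 2 and 3. Every RANKL library was above every vehicle library, and RANKL replicate 1 stood well above the other RANKL libraries. These levels rest on 393, 241 and 202 raw counts in the RANKL libraries and 174, 164 and 151 in the vehicle libraries. Myf6 rose 1.76-fold, a log2 fold change of 0.82 ± 0.16 (95% interval 0.47 to 1.17, adjusted p = 0.00456 by edgeR). Without RANKL replicate 1 the log2 fold change was 0.56 and still called (adjusted p = 0.00254 by edgeR).

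Myf5, the early myoblast factor, had 19.0, 16.1 and 15.8 CPM in RANKL replicates 1, 2 and 3, against 15.4, 15.2 and 15.5 CPM in vehicle replicates 1, 2 and 3. The groups did not overlap, although RANKL replicates 2 and 3 lay close to the vehicle libraries. The log2 fold change was 0.14 ± 0.07 (95% interval -0.01 to 0.30) and did not pass (adjusted p = 0.229 by edgeR). Without RANKL replicate 1 it was 0.05. The ratio of Myf6 to Myf5 in RPKM was 0.918, 0.739 and 0.648 in RANKL replicates 1, 2 and 3. It was 0.488, 0.544 and 0.444 in vehicle replicates 1, 2 and 3. Myf6, which was called higher, thus came closer to its neighbour in every RANKL library than in any vehicle library. The ratio of Myog to Myod1 overlapped between groups, at 4.318, 4.505 and 4.251 in the RANKL libraries and 3.819, 4.261 and 4.35 in the vehicle libraries.

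The rise of Myf6 made little difference to the sum of the family. The 4 MyoD family genes together had 465 ± 16.6 RPKM in RANKL myotubes and 464 ± 5.96 RPKM in vehicle myotubes. Myf6 held 1.36% ± 0.340 of that sum in RANKL myotubes and 0.787% ± 0.0805 in vehicle myotubes, whereas Myog held 78.8% ± 0.619 in RANKL myotubes and 78.6% ± 1.11 in vehicle myotubes.

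**Figure D2:**
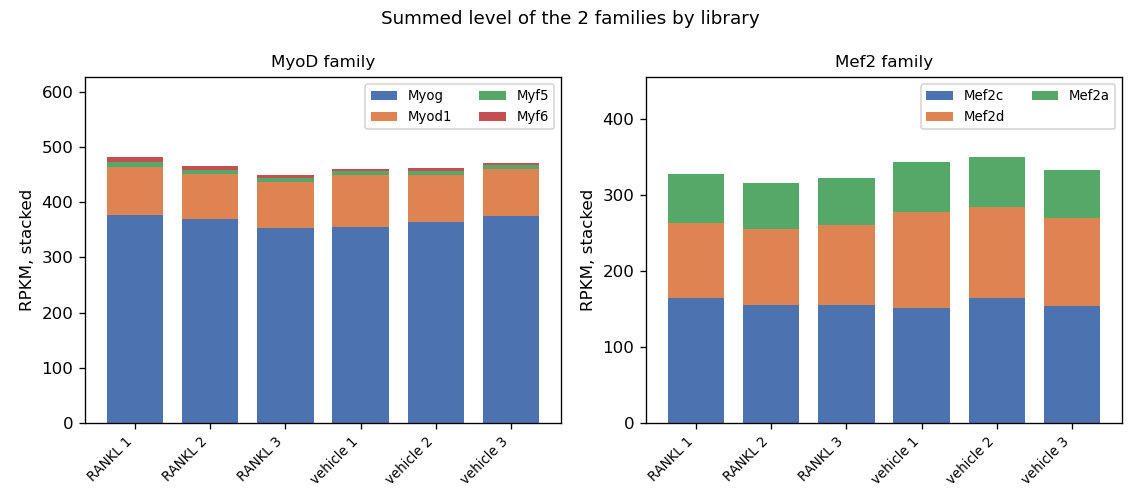
Stacked RPKM of the MyoD family (left) and the Mef2 family (right) in each library. Myog made up about 79% of the MyoD family in both groups, and the Mef2d part of the Mef2 bars was smaller in all 3 RANKL libraries than in any vehicle library.

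Mef2d, the broadly expressed Mef2 member with a muscle-specific splice form (chr3:88142372-88172086), had 244, 249 and 258 CPM in RANKL replicates 1, 2 and 3, against 310, 292 and 286 CPM in vehicle replicates 1, 2 and 3. The groups did not overlap, and the highest RANKL library lay below the lowest vehicle library. Mef2d fell by 0.24 ± 0.04 on the log2 scale, to 0.845 of its vehicle level (95% interval -0.32 to -0.17, adjusted p = 0.000596 by edgeR). The call held without any single library, with log2 fold changes from -0.27 to -0.21 over 15 alternatives. Its exons overlap those of 1700113A16Rik on the opposite strand, and the sources used here do not say whether counting used strand.

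Mef2c, the most abundant Mef2 gene of these cultures (chr13:83504034-83667080), had 1079, 1017 and 1019 CPM in RANKL replicates 1, 2 and 3 and 992, 1084 and 1007 CPM in vehicle replicates 1, 2 and 3. The groups overlapped, with a log2 fold change of 0.01 ± 0.04 (95% interval -0.07 to 0.10, adjusted p = 0.851 by edgeR).

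Mef2a, the third Mef2 gene measured (chr7:67231163-67372858), had 372, 352 and 361 CPM in RANKL replicates 1, 2 and 3 and 390, 387 and 373 CPM in vehicle replicates 1, 2 and 3. All RANKL libraries lay below all vehicle libraries, by a small margin. The log2 fold change of -0.09 ± 0.03 (95% interval -0.16 to -0.02) did not pass (adjusted p = 0.104 by edgeR). It passed without RANKL replicate 1 (-0.10, adjusted p = 0.0424 by edgeR). Exons of Mef2a overlap those of Lysmd4 on the opposite strand.

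Within the Mef2 family Mef2d held 31.6% ± 1.17 of the summed RPKM in RANKL myotubes and 35.2% ± 1.39 in vehicle myotubes. The ratio of Mef2c to Mef2d in RPKM was 1.66, 1.53 and 1.48 in RANKL replicates 1, 2 and 3 and 1.20, 1.39 and 1.32 in vehicle replicates 1, 2 and 3, without overlap. Together the 3 genes had 322 ± 5.53 RPKM in RANKL myotubes and 343 ± 8.33 RPKM in vehicle myotubes.

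Pax7, the satellite cell factor (chr4:139737062-139833528), was close to the lowest level in the table. It had 21, 19 and 22 raw counts in RANKL replicates 1, 2 and 3 and 30, 21 and 29 in vehicle replicates 1, 2 and 3. In CPM the RANKL libraries lay from 0.557 to 0.664 and the vehicle libraries from 0.631 to 0.785, with overlap. The log2 fold change of -0.31 ± 0.24 did not pass (adjusted p = 0.444 by edgeR), and its 95% interval from -0.82 to 0.20 leaves room for a sizeable change at this depth.

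Six4, a homeobox factor upstream of the MyoD family (chr12:73099609-73113456) had 54.99, 51.1 and 49.6 CPM in RANKL replicates 1, 2 and 3 and 57.7, 54.97 and 54.6 CPM in vehicle replicates 1, 2 and 3. The groups overlapped through RANKL replicate 1. The log2 fold change of -0.10 ± 0.04 (95% interval -0.20 to -0.01) did not pass (adjusted p = 0.147 by edgeR), but passed without RANKL replicate 1 (-0.15, adjusted p = 0.0336 by edgeR). Thus 3 of the 9 factors, Mef2d, Mef2a and Six4, were called lower when that library was left out.

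**Figure D3:**
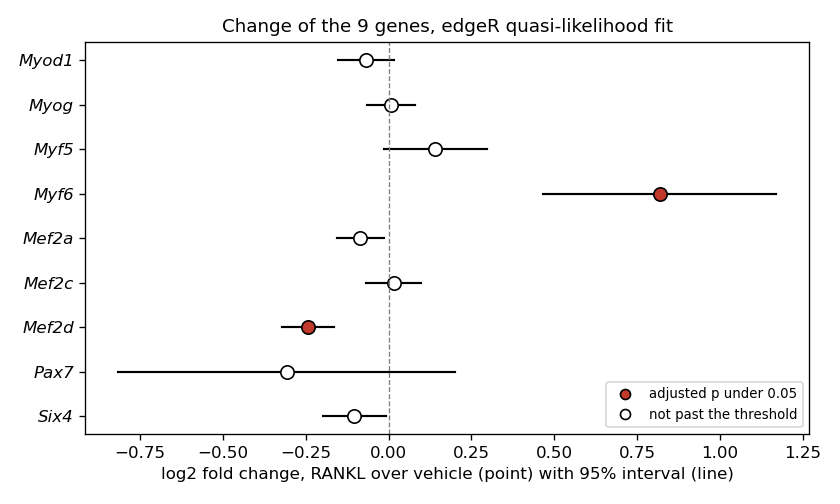
Log2 fold change of RANKL over vehicle for the 9 genes, with points for the estimate and lines for the 95% interval; filled points passed the test. Myf6 lay to the right of 0 and Mef2d to the left, and the widest interval was that of Pax7.

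Genes with the profile most like that of each called factor were sought among 11462 others with a mean of at least 1 CPM, as the smallest root mean square difference of log2 CPM over the 6 libraries, each gene centred on its own mean. Nearest to Myf6 were Car9, a hypoxia-inducible carbonic anhydrase, and Mlip, a lamin-interacting protein of muscle, with differences of 0.0765 and 0.0915. The spread of Myf6 around its own mean was 0.457 on the same scale. Car9 had 10.1, 6.55 and 5.49 CPM in RANKL replicates 1, 2 and 3, against 3.86, 4.78 and 3.44 CPM in vehicle replicates 1, 2 and 3. It rose 1.85-fold (adjusted p = 0.00667 by edgeR), and Mlip rose 1.92-fold (adjusted p = 0.00473 by edgeR). In both, as in Myf6, RANKL replicate 1 was the highest library, and without it their log2 fold changes were 0.59 and 0.65, with the calls kept.

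Nearest to Mef2d were Lrrc75a and Myo18a, an unconventional myosin, each at a difference of 0.0147 beside a spread of 0.128 for Mef2d. Myo18a had 500, 505 and 520 CPM in RANKL replicates 1, 2 and 3, against 614, 594 and 580 CPM in vehicle replicates 1, 2 and 3, and fell by 0.23 ± 0.03 on the log2 scale (adjusted p = 0.000415 by edgeR). Lrrc75a fell by 0.23 ± 0.06 (adjusted p = 0.0224 by edgeR), and its call was lost without RANKL replicate 1 or 2, without vehicle replicate 1 or 2, and in DESeq2. These likenesses were picked from many genes over 6 libraries that differ by group, and they are descriptions.

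**Figure D4:**
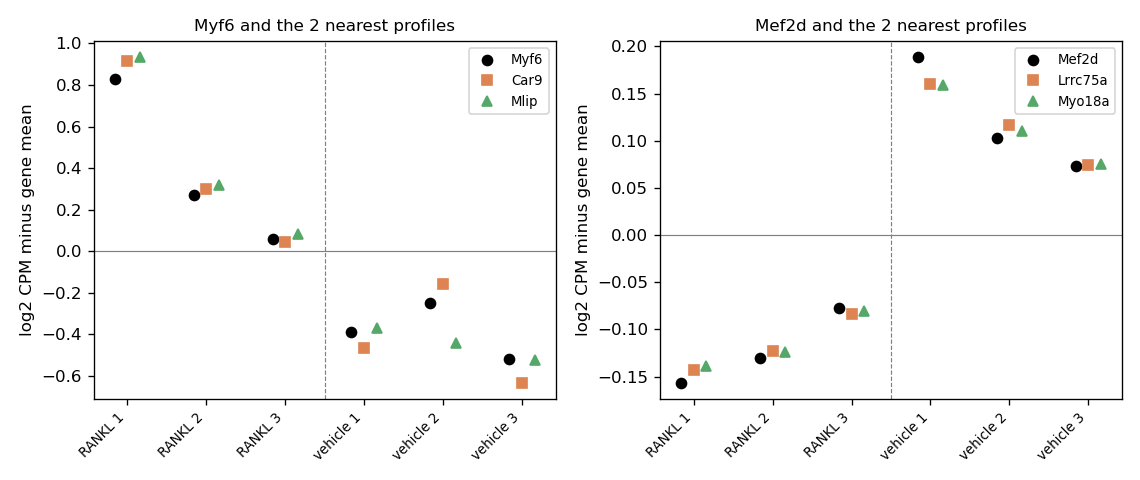
Log2 CPM minus the gene's own mean in each library for Myf6 with Car9 and Mlip (left) and for Mef2d with Lrrc75a and Myo18a (right). RANKL replicate 1 was highest for the 3 genes on the left and lowest for the 3 genes on the right.

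E proteins pair with MyoD family proteins, and Id proteins keep them from doing so. Of 6 measured E proteins and Id inhibitors 1 fell (16.7% called, beside 12.9% of all genes), Tcf4, an E protein, to 238 ± 9.22 CPM in RANKL myotubes, against 269 ± 2.36 CPM in vehicle myotubes (log2 fold change -0.18 ± 0.03, adjusted p = 0.00308 by edgeR). The other E proteins, Tcf3 and Tcf12, had log2 fold changes of 0.09 ± 0.04 and -0.03 ± 0.03, and Id1, Id2 and Id3, which sequester E proteins, had -0.19 ± 0.07, 0.06 ± 0.07 and -0.24 ± 0.14; none of these 5 passed, although Id1 was called lower with the trend on gene length removed. The median over the list was -0.11, beside 0.00471 over all genes. This list and those below were chosen with earlier results of these data known. Their shares called are descriptions, and the share over all genes was not matched for expression level.

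Among 14 measured repressors of myogenesis and related factors 3 rose and 2 fell (35.7% called, beside 12.9% of all genes). Zeb2, a zinc finger repressor that binds E-boxes, rose to 142 ± 4.07 CPM in RANKL myotubes, against 120 ± 3.44 CPM in vehicle myotubes (log2 fold change 0.24 ± 0.03, adjusted p = 0.000436 by edgeR). Msc (musculin, a bHLH repressor) rose by 0.98 ± 0.22 on the log2 scale from a low level, with 1.57 ± 0.340 CPM in RANKL myotubes and 0.797 ± 0.131 CPM in vehicle myotubes, and Bhlhe41 rose by 0.19 ± 0.03. The 2 that fell were Hes6 (-0.22 ± 0.04, adjusted p = 0.00120 by edgeR) and Hes1 (-0.23 ± 0.06). Hes6 is known as an inhibitor of Hes1 that promotes myogenic differentiation. Hes1 was not called without RANKL replicate 3, without vehicle replicate 2 or with total count scaling, which left 1 lower gene. With the replicate block and the length trend removed together 5 rose. Msc, Bhlhe41, Hes1 and the E proteins and Id genes other than Tcf4 were chosen after their values were seen.

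Of 7 measured partners and relatives of Six4 and Pax7 (Eya and Groucho proteins among them) 1 fell (14.3% called, beside 12.9% of all genes). This was Tle3, a Groucho-type corepressor, which fell by 0.21 ± 0.04 on the log2 scale (adjusted p = 0.00180 by edgeR). Pax3 and Eya2 are not analysed here.

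Of 24 measured genes for other regulators of muscle 11 fell and 13 did not pass, 45.8% called beside 12.9% of all genes. As the list was chosen with earlier results known, and all genes were not matched for level, the shares are descriptions. Besides transcription regulators the 24 include Rbfox1, a splicing factor. Their log2 fold changes lay between -0.25 and -0.01, with the median at -0.12. Klf5, a Krüppel-like factor of muscle regeneration, fell to 193 ± 2.40 CPM in RANKL myotubes, against 230 ± 2.65 CPM in vehicle myotubes (log2 fold change -0.25 ± 0.03, adjusted p = 9.18e-05 by edgeR). Nfix, which drives the switch to the fetal muscle programme, fell to 498 ± 10.01 CPM in RANKL myotubes, against 567 ± 8.86 CPM in vehicle myotubes (-0.19 ± 0.03, adjusted p = 0.00123 by edgeR). Tead1, Tead3 and Tead4, the factors through which Yap and Vgll proteins act, fell by 0.14 ± 0.04, 0.23 ± 0.04 and 0.16 ± 0.04, and Vgll3 by 0.19 ± 0.04. Their relatives Tead2 (-0.10 ± 0.03), Vgll2 (-0.08 ± 0.10) and Vgll4 (-0.08 ± 0.05) did not pass, and all 7 were chosen after their values were seen. Tead1 was not called without RANKL replicate 2, vehicle replicate 1 or vehicle replicate 2, nor Tead4 without vehicle replicate 2. The number that fell was 6 without RANKL replicate 2, 6 without vehicle replicate 1 and 5 without vehicle replicate 2. With total count scaling or DESeq2 8 fell, and with the trend on gene length removed 13 fell. All 24 estimates lay below 0 with TMM scaling and all libraries, against 22 with total count scaling and 20 without RANKL replicate 3.

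The list of chromatin cofactors of MyoD and Mef2, which also holds signalling kinases and an anchoring protein, had 9 of 29 genes lower. The other 20 did not pass (31% called, beside 12.9% of all genes, of which 7.5% lower), and the median log2 fold change was -0.06. Among the 9 were the kinases Camk2d (-0.11 ± 0.03) and Camk2g (-0.15 ± 0.03) and the anchoring protein Akap6 (-0.15 ± 0.03). Akap6 was not called without RANKL replicate 2 or vehicle replicate 2. Hdac7, a class IIa deacetylase that binds Mef2, fell to 25.9 ± 0.848 CPM in RANKL myotubes, against 31.2 ± 0.989 CPM in vehicle myotubes (-0.27 ± 0.05, adjusted p = 0.00200 by edgeR). Of the other class IIa enzymes Hdac5 fell by 0.18 ± 0.03, while Hdac4 (-0.12 ± 0.04) and Hdac9 (0.08 ± 0.08) did not pass. The acetyltransferase Crebbp fell by 0.18 ± 0.05, and its relative Ep300 (-0.10 ± 0.04) did not pass. Crebbp was not called without RANKL replicate 2, vehicle replicate 1 or vehicle replicate 2. Without RANKL replicate 2 the list had 4 lower genes, without vehicle replicate 1 it had 5 and without vehicle replicate 2 it had 6. Camk2d, Camk2g, Akap6, Hdac5, Hdac4, Hdac9, Crebbp and Ep300 were chosen after their values were seen.

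**Figure D5:**
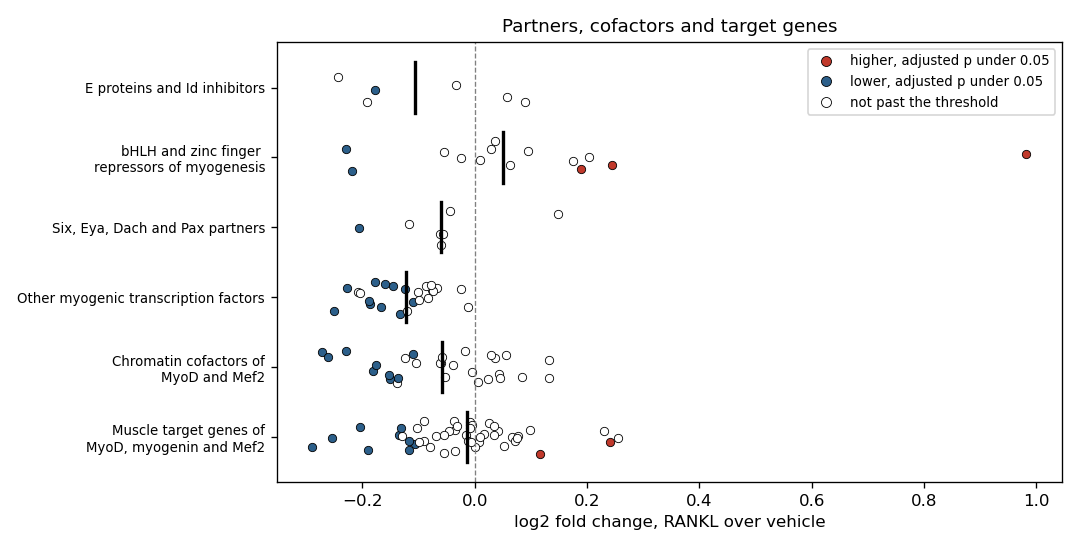
Log2 fold change of RANKL over vehicle for the measured genes of 6 lists around the 9 factors, 1 point per gene and a bar at each list's median; filled points passed the test. The 24 other regulators of muscle all lay below 0 here, with TMM scaling and all libraries (20 of them without RANKL replicate 3 and 22 with total count scaling). Target genes lay on both sides.

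Among 48 muscle target genes of the MyoD and Mef2 families 9 fell and 2 rose. This was 22.9% called, beside 12.9% of all genes (7.5% lower and 5.35% higher). The median log2 fold change was -0.01, or 0.02 with total count scaling. The summed level of the list was 53287 to 55206 CPM in RANKL libraries and 56431 to 56933 CPM in vehicle libraries, without overlap. The sum was taken with TMM scaling alone and leans on abundant genes. Among these, Acta1 averaged 5325 and Myh3 7091 CPM in RANKL myotubes, against 6072 and 7769 CPM in vehicle myotubes. Cdh15, the M-cadherin of myoblasts, fell to 327 ± 2.03 CPM in RANKL myotubes, against 400 ± 14.2 CPM in vehicle myotubes (-0.29 ± 0.03, adjusted p = 5.57e-05 by edgeR). Itga7, the laminin receptor of muscle fibres, fell to 1731 ± 49.1 CPM in RANKL myotubes, against 1995 ± 38.2 CPM in vehicle myotubes (-0.20 ± 0.03, adjusted p = 0.00131 by edgeR). Xirp1 fell by 0.25 ± 0.04 while its relative Xirp2 rose by 0.24 ± 0.05. Acta1 and Myh3 also fell, by 0.19 ± 0.03 and 0.13 ± 0.04, and Klhl41 rose by 0.12 ± 0.03. Myh3 was not called with total count scaling, without RANKL replicate 2, or without vehicle replicate 1 or 2. Klhl41 was not called without RANKL replicate 2 or without any one vehicle replicate. Ckm, the muscle creatine kinase and a classic E-box and Mef2 target, had 455 ± 39.5 CPM in RANKL myotubes and 442 ± 3.35 CPM in vehicle myotubes and did not pass (adjusted p = 0.628 by edgeR). The fusion genes Tmem8c (myomaker) and Gm7325 (myomixer) had log2 fold changes of -0.09 ± 0.04 and 0.01 ± 0.04, and the fetal acetylcholine receptor subunit Chrng had 0.02 ± 0.07; none of these 3 passed. Tmem8c was called lower without RANKL replicate 1 and with the length trend removed. The number that fell was 5 without RANKL replicate 2, 4 without vehicle replicate 2 and 5 with total count scaling. It was 13 without RANKL replicate 1, 11 with the length trend removed and 13 with the replicate block and that removal together. The number that rose was 1 without RANKL replicate 2 or without any one vehicle replicate and 3 with total count scaling. Xirp1, Xirp2, Acta1, Myh3, Klhl41, Ckm, Tmem8c, Gm7325 and Chrng were chosen for this paragraph after their values were seen. Acta1, Myh3, Ckm and Tmem8c also belonged to the myotube markers.

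Among markers of cycling cells 7 of 10 rose (70% called, beside 12.9% of all genes, of which 5.35% higher). Their summed levels ran from 272 to 291 CPM in RANKL libraries and from 228 to 235 CPM in vehicle libraries. The other 3 markers, Mcm5 (0.28 ± 0.12), Pcna (0.11 ± 0.06) and Rrm2 (-0.04 ± 0.04), did not pass and were named after their values were seen. Mki67 rose by 0.55 ± 0.06 and Cdk1 by 0.51 ± 0.07 on the log2 scale. Of the other marker lists, 4 of 10 adipocyte genes were measured (summed 55.8 to 83.3 CPM in RANKL and 59.8 to 61.3 CPM in vehicle libraries), 5 of 10 osteoblast genes (889.9 to 1011 CPM in RANKL and 819 to 881 CPM in vehicle libraries), 3 of 12 macrophage and osteoclast genes (5.82 to 6.95 CPM in RANKL and 4.66 to 5.31 CPM in vehicle libraries) and 3 of 8 endothelial genes (2.82 to 3.53 CPM in RANKL and 2.95 to 3.58 CPM in vehicle libraries). EdgeR called 0 genes in each of these 4 lists, as did DESeq2 and limma-voom, with 2, 2, 1 and 0 genes at an unadjusted p under 0.05. Their genes with the smallest p were Plin4 (-0.38 ± 0.14), Col1a1 (0.24 ± 0.08), Cd14 (0.29 ± 0.11) and Egfl7 (0.11 ± 0.22). Plin4 was called without RANKL replicate 1, 1 adipocyte gene was called higher without RANKL replicate 3, and Col1a1 was called in 6 of 15 alternatives. The part of cycling or other cells in the changes of the 9 factors and their partners was not tested.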

How the data were processed

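RNA of 6 C2C12 libraries, extracted and sequenced at one time per the labels, was read in paired-end mode on an Illumina HiSeq. Per the submitters' processing notes, FastQC, STAR and edgeR were used with mm10; no source used here gives the counter, the annotation or the use of strand. The authors deposited raw counts for 12625 gene symbols and a table of log2 values. After 4708 empty lines were dropped, the authors' log2 values equalled log2 RPKM up to one constant per library, within an SD of 0.000387 over 9727 genes. The third-highest library had at least 0.504 CPM in every gene, so low genes had been removed before deposit.

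The members and lists were chosen with earlier results of these data known. Counts were fitted in R 4.3.3 with edgeR 4.0.16 (TMM scaling, filterByExpr, which removed 0 genes, and the quasi-likelihood F test, RANKL over vehicle, no covariate) with Benjamini-Hochberg adjustment over all genes. SE is the log2 fold change divided by the square root of F. RPKM are powers of 2 of the deposited log2 values. Alternatives were RLE and total count scaling, DESeq2 1.42.0, limma-voom (limma 3.58.1), other filters, removal of the trend on gene length, a replicate block and leaving out each library. The chi-square per gene between replicates of a group was 3.39 to 9.52, so each was kept as its own sample. The steps were tested on simulated data. Named genes are all 9 members and up to 2 called genes per list by smallest p (the smallest p where none passed). Also named are the 2 nearest profiles of each called member and the myotube markers Ckm, Des, Acta1, Myh3, Mylpf, Tnnt3, Tmem8c and Cdh15. Others are marked as chosen after their values were seen. One gene that this rule names is not reported here. Of the list entries 166 matched directly and 4 through an older name. Positions and exons come from GENCODE M21 (mm10). Among other named genes, Zeb2, Nfix, Hdac7, Itga7, Vcam1, Spry1, Plin4, Egfl7, Car9, Lrrc75a, Msc, Bhlhe41, Hdac4, Xirp2, Ckm and Cd34 share exons with a gene on the opposite strand, which makes their counts less certain.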

Additional observations from a re-analysis of the deposited data

How the results depend on the processing

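Myf6 and Mef2d kept their calls in all 15 alternatives, with log2 fold changes from 0.56 to 0.97 and from -0.27 to -0.21 and adjusted p from 4.24e-05 to 0.0289 and from 1.73e-07 to 0.0055. The number of the 9 factors called lower was 1 to 3 over the analyses that left out 1 library, since Mef2a and Six4 joined without RANKL replicate 1, and the number called higher was 1 in each. Over all genes, total count scaling gave 1070 higher and 626 lower genes, 63.1% of calls higher beside 41.7% with TMM. Leaving out 1 library gave 373 to 746 higher and 537 to 880 lower genes. TMM factors were 0.980 to 0.998 in vehicle libraries and 1.007 to 1.013 in RANKL libraries. The median log2 fold change of all genes was 0.00471 with TMM and 0.0354 with total count scaling. Fits without 1 library rested on fewer samples, and what moved their counts was not tested. Same-numbered replicates correlated at 0.119, 0.0543 and 0.0185 in their deviations from group means. RANKL replicates 1 and 2 correlated best with the vehicle replicate of the same number, and RANKL replicate 3 with vehicle replicate 2. Correlations this weak cannot decide whether the numbers mark a pairing. With the replicate block 730 genes were higher and 1008 lower, and 1 of the 9 factors in each direction. With 19 to 30 counts per library, Pax7 was measured too thinly for a change of its size to be called. Pax7 was not tested with the filter of at least 1 CPM.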

Other observations

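Genes of satellite and reserve cells, the undifferentiated cells that remain beside myotubes, were mixed. Among the 17 measured genes 2 rose and 2 fell, with a median log2 fold change of 0.05. This was 23.5% called, beside 12.9% of all genes (5.35% higher and 7.5% lower). Vcam1, an adhesion molecule that is also a known NF-kB target, rose to 136 ± 14.2 CPM in RANKL myotubes, against 52.0 ± 2.94 CPM in vehicle myotubes (SD, n = 3 each; log2 fold change 1.39 ± 0.06, adjusted p = 3.91e-09 by edgeR). Cd34, a surface sialomucin of quiescent satellite cells, rose to 30.9 ± 1.37 CPM in RANKL myotubes, against 25.1 ± 0.701 CPM in vehicle myotubes (0.30 ± 0.05, adjusted p = 0.00133 by edgeR). Spry1, an inhibitor of growth factor signalling linked to satellite cell quiescence, fell to 49.1 ± 3.37 CPM in RANKL myotubes, against 62.4 ± 2.30 CPM in vehicle myotubes (-0.34 ± 0.05, adjusted p = 0.000385 by edgeR). The other gene that fell, Megf10 (-0.13 ± 0.04), was not called without RANKL replicate 2 or 3, without vehicle replicate 1 or 2, with total count scaling or with the trend on gene length removed. Without RANKL replicate 1, 4 genes of the list fell, and 1 fell without RANKL replicate 2 or 3, without vehicle replicate 1 or 2, with total count scaling and with the length trend removed. With the replicate block and the length trend removed together 6 rose. Cd34 and Megf10 were chosen after their values were seen.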
